A study of Mus musculus with 3 samples.

Results

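The 10 genes described here encode the enzymes that take glucose to pyruvate, the steps of glycolysis that precede lactate: Hk2, Gpi1, Pfkl, Aldoa, Tpi1, Gapdh, Pgk1, Pgam1, Eno1 and Pkm. They were taken by name from a table of 32285 genes, in which all 10 were found. They were followed across the states of spleen B cells and between LDHA-sufficient and LDHA-deficient mice. LDHA is the lactate dehydrogenase subunit that converts the pyruvate made by these enzymes to lactate.

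The data come from spleen B cells of 3 LDHA-sufficient mice (hashtags marked WT in the labels) and 3 LDHA-deficient mice (marked KO). Each mouse's cells had their own hashtag, an antibody with a barcode, and passed a sort for viability, B cell markers and GL7, which activated and germinal centre (GC) B cells display. All were loaded together on 1 lane of a droplet kit that reads transcripts from their 5′ end, and the hashtags and the heavy chains of the B cell receptor were sequenced alongside. The mouse is the replicate. The sources used here do not give the mice's age, strain or sex, any immunisation, how Ldha was deleted or in which cells. The GL7 gate shapes the mix of states, so the numbers of cells per state do not describe the spleen.

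The data held 18170115 unique molecular identifiers (UMIs, counts of single captured transcripts) in 2836 barcodes, of which 1807 passed as singly hashtagged B-lineage cells. Per mouse this left 238 to 361 cells and 1131694 to 2215409 UMIs. Although the transcript library is labelled pre-GC and GC B cells, 147 cells were GC B-like by their markers, 127 were activated or pre-GC B-like and 62 were replicating cells with few GC transcripts (median 1 UMI over 8 GC markers, against 18 in GC B-like cells). Another 762 cells were follicular B-like, 199 marginal zone B-like, 197 interferon-responding, 18 plasma cell-like and 295 stayed unnamed. LDHA-sufficient mouse 3 stood apart from the other LDHA-sufficient mice: it gave 11 GC B-like cells, against 56 and 68, and its summed red cell markers stood at 3110 CPM (UMIs of a gene per 1000000 UMIs of the cells summed), against 24.2 to 593 in the other 5 mice. The LDHA-deficient mice gave 5, 5 and 2 GC B-like cells.

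Glycolysis has a first part that spends ATP and a second part that returns it. Hexokinase, glucose-6-phosphate isomerase, phosphofructokinase and aldolase carry glucose to the triose phosphates, and triose phosphate isomerase, glyceraldehyde-3-phosphate dehydrogenase, phosphoglycerate kinase, phosphoglycerate mutase, enolase and pyruvate kinase carry those to pyruvate. Glyceraldehyde-3-phosphate dehydrogenase uses NAD+, which lactate dehydrogenase regenerates. Activated and GC B cells divide rapidly and take up more glucose and other nutrients than resting follicular B cells.

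Across cell states, a group of the 10 enzymes was more abundant in GC B-like and replicating cells. Another group was nearly level. In the LDHA-sufficient mice, Tpi1, Gapdh, Pgk1, Pgam1 and Pkm, which act in the second part of the pathway, stood on average more than 2-fold above their level in follicular B-like cells of the same mouse when read in GC B-like cells, and were above it in all 3 mice. Eno1 was also above it in all 3 mice, by 1.48-fold. Gpi1, Pfkl and Aldoa stood at 1.04-fold, 1.17-fold and 1.13-fold, each above in 2 of 3 mice, and Hk2 gave too few UMIs to place (11 in GC B-like and 8 in follicular B-like cells). The median of the 10 was 0.84 on the log2 scale, against 0.14 over 3211 genes with at least 50 CPM, of which 15.5% stood more than 2-fold above and 41.9% were above in all 3 mice. The states are clusters of these same cells, so the levels between them are a description and were not tested. The 10 enzymes and their neighbouring pathways were left out of the clustering. Plasma cell-like cells reached 5 cells in 1 LDHA-sufficient mouse only and are left out of the orders of states given for each enzyme. In that mouse's 8 plasma cell-like cells Gapdh stood at 701 CPM, Pkm at 236, Aldoa at 178.5, Tpi1 at 95.6, Gpi1 at 89.2 and Pfkl at 12.75 (2 UMIs). Fold values here come from the mean of log2(CPM + 1).

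**Figure D1:**
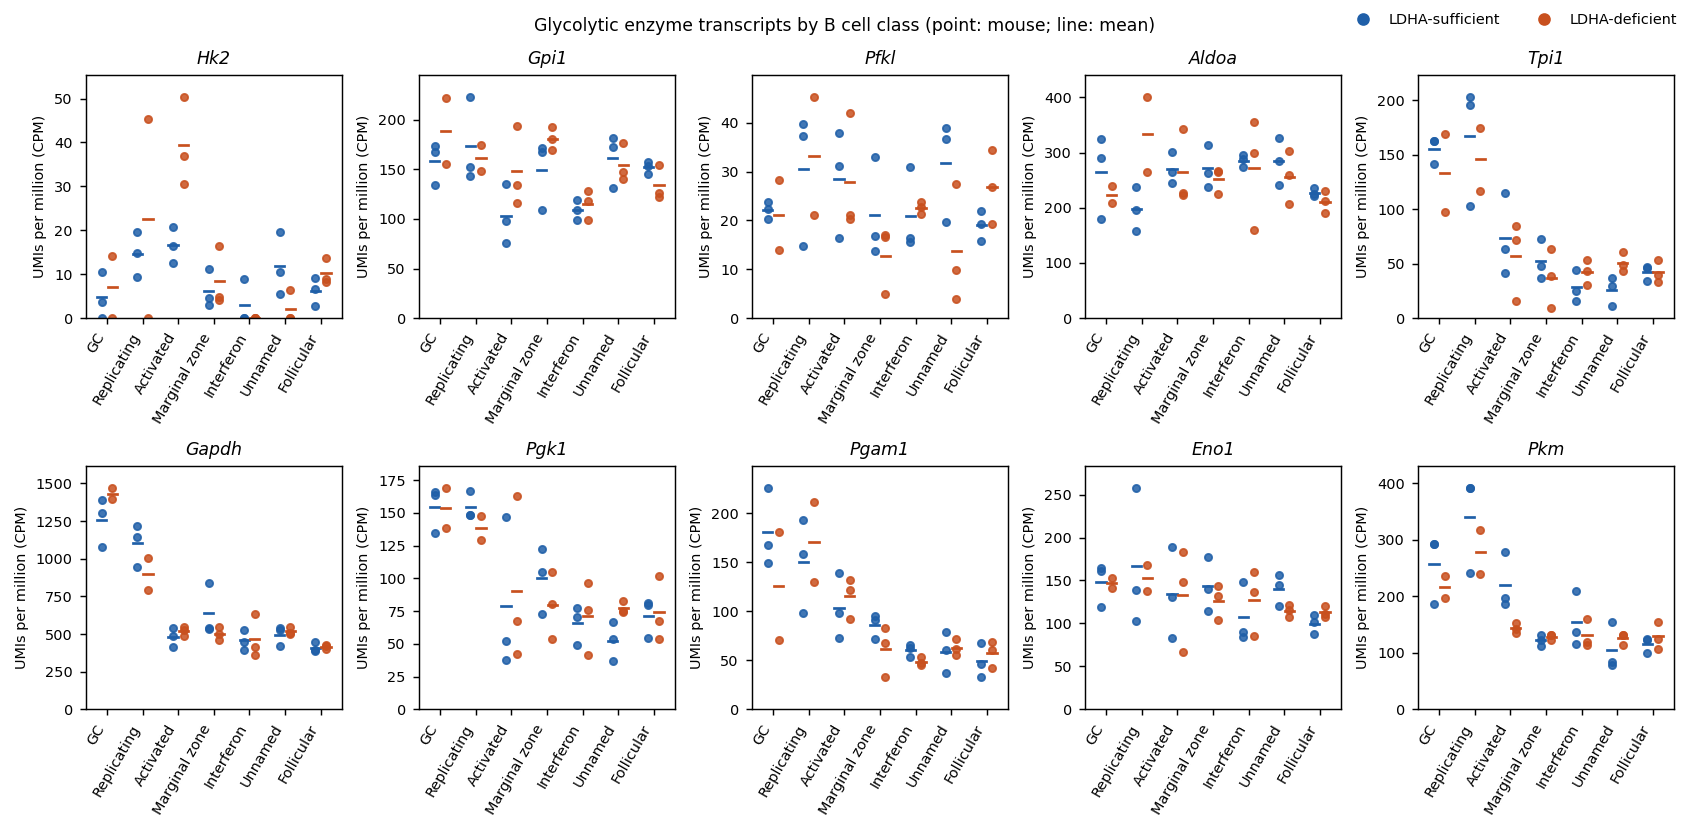
Transcript level of each enzyme in CPM (y axis from 0) in 7 B cell classes (x axis). Each point is 1 mouse with at least 5 cells of that class, blue for LDHA-sufficient and orange for LDHA-deficient, and lines are means. Gapdh stands between 1075 and 1470 CPM in the GC class and between 391 and 445 in the follicular class, while Gpi1 and Aldoa overlap between those classes.

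Members of both groups are shown here by the stretch just before their start: Pgam1 and Pgk1, which were higher in GC B-like cells, and Gpi1, which was level. The sequences are the 250 bases before the first start site that RefSeq lists for each gene (build GRCm38.p6), 5′ to 3′ along the gene's strand, at chr19:41911621-41911870 (plus strand) for Pgam1, chrX:106186850-106187099 (plus) for Pgk1 and chr7:34230337-34230586 (minus) for Gpi1. Capitals mark ACGTG and GCGTG, the core letters of the hypoxia response element, on either strand.
Pgam1: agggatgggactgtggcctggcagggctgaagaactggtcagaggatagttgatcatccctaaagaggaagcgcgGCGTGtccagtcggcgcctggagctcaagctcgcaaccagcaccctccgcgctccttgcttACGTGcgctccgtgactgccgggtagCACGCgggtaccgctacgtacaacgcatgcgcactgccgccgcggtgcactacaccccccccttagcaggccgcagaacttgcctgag
Pgk1: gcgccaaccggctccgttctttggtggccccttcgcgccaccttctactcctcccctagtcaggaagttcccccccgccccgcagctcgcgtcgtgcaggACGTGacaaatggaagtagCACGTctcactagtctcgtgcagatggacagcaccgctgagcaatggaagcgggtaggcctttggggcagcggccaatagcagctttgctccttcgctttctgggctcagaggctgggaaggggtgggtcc
Gpi1: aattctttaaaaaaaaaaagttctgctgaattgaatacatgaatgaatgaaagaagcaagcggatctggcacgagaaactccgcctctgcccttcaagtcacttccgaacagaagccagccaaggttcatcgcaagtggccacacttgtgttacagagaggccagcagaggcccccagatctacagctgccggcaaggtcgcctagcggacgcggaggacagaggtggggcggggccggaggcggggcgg

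All 10 enzymes matched a RefSeq entry. The windows of Tpi1, Gapdh, Aldoa, Pkm and Pfkl reach into the gene spans given with each enzyme, which begin at an earlier start, so for these the window lies before a RefSeq start and partly or wholly within the gene. ACGTG was found in the windows of Hk2, Pgam1 and Pgk1 (3 of 10, against 16.6% of 27025 genes) and GCGTG in those of Eno1, Gapdh, Pfkl and Pgam1 (4 of 10, against 28.2%). Either was found in 6 of 10, against 38.6% of all genes. CACGTG, the E-box that MYC binds, which contains ACGTG, was found in none of the 10, against 6.05% of all genes. Of the 5 enzymes more than 2-fold above follicular cells, Tpi1 and Pkm had none of these letters in this window, and of the 3 level enzymes Pfkl had them.

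Hk2, hexokinase 2 (chr6:82725025-82774454, minus strand), which phosphorylates glucose on entry, gave 99 UMIs over all cells kept. Its highest mean in LDHA-sufficient mice was in activated B-like cells, at 16.6 ± 4.07 CPM (SD, n = 3), and follicular B-like cells stood at 6.12 ± 3.18, but these rest on 4 and 8 UMIs and neighbours in the order overlapped throughout. In LDHA-deficient activated B-like cells Hk2 gave 6, 7 and 3 UMIs (50.4, 37.0 and 30.5 CPM), against 2, 1 and 1 UMIs (20.8, 16.4 and 12.6 CPM) in LDHA-sufficient ones. The mice of the genotypes did not overlap there, as for 7.93% of the 1589 genes past the count filter in that class, but Hk2 was below that filter and was not tested.

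Gpi1 (chr7:34201330-34230336, minus) encodes glucose-6-phosphate isomerase. Its LDHA-sufficient means ran from 173 ± 43.7 CPM in replicating cells to 103 ± 29.9 in activated B-like cells, with GC B-like cells at 158 ± 21.1 and follicular at 152 ± 6.45 (SD, n = 3), and every neighbour in the order overlapped. Per mouse it stood at 167.5, 173.5 and 134 CPM in GC B-like cells and 145, 158 and 154 in follicular B-like cells. Activated B-like cells were below follicular cells in all 3 LDHA-sufficient mice.

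Pfkl, the liver-type phosphofructokinase that commits sugar to glycolysis (chr10:77986947-78010083, minus), gave 225 UMIs. Its LDHA-sufficient means lay between 19.0 ± 3.05 CPM in follicular B-like and 31.7 ± 10.5 in unnamed cells, and all neighbours overlapped. Aldoa, aldolase A (chr7:126795234-126800751, minus), splits the 6-carbon sugar. In LDHA-sufficient mice it stood highest in interferon-responding cells at 274 to 296 CPM and lowest in replicating cells at 158 to 238 CPM. All neighbours in this order overlapped. In GC B-like cells of these mice Aldoa gave 290, 324 and 179 CPM, which spans the 225, 221 and 235 CPM of follicular B-like cells. The order differed in LDHA-deficient mice, where replicating cells had the highest mean, 333 CPM (265 and 401 in 2 mice). Interferon-responding cells stood at 271 there (159.5 to 355, n = 3).

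Tpi1, triose phosphate isomerase (chr6:124810586-124814296, minus), interconverts the triose phosphates. It stood at 162, 163 and 142 CPM in the GC B-like cells of the LDHA-sufficient mice and at 46.6, 46.0 and 33.9 CPM in their follicular B-like cells, so that the states did not overlap and the mean ratio was 3.66-fold. Replicating cells gave 167 ± 55.6 CPM and overlapped with GC B-like cells. The next state, activated B-like cells at 73.1 ± 37.6 CPM, lay wholly below the GC B-like values.

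Gapdh, glyceraldehyde-3-phosphate dehydrogenase (chr6:125161715-125166467, minus), makes NADH and gave 6856 UMIs. Its levels were 1302, 1387 and 1075 CPM in the GC B-like cells of the LDHA-sufficient mice and 392, 445 and 391 in follicular B-like cells, a mean ratio of 3.05-fold. Replicating cells stood at 1104 ± 139 CPM and overlapped with GC B-like cells, and both lay above marginal zone B-like cells at 637 ± 173 CPM, the next in order. Of all UMIs of the 10 enzymes, Gapdh took 48.4% ± 1.89 in GC B-like cells and 34.3% ± 0.875 in follicular B-like cells (SD, n = 3), while Gpi1 went from 12.8% ± 0.391 in follicular to 6.11% ± 0.153 in GC B-like cells. The pathway's transcripts thus differed between these states in make-up as well as in total.

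Pgk1, phosphoglycerate kinase 1 (chrX:106187100-106203699, plus), which returns the first ATP, stood at 166, 164 and 134 CPM in GC B-like cells and 79.4, 81.1 and 54.3 in follicular B-like cells. GC B-like and replicating cells had the same mean of 155 CPM, and both lay above marginal zone B-like cells at 100.2 ± 25.4. Pgam1, phosphoglycerate mutase 1 (chr19:41911923-41918660, plus), gave 225.5, 167.5 and 149 CPM in GC B-like cells and 32.9, 46.0 and 67.9 in follicular B-like cells, a ratio of 3.74-fold on average that varied between mice (SD 0.81 on the log2 scale). It was also 2.10-fold above follicular cells in activated B-like cells (log2 1.07 ± 0.05, SD, n = 3). These ratios rest on 7, 6 and 11 UMIs in activated B-like and 12, 21 and 30 in follicular B-like cells. The small SD is therefore not a measure of their precision.

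Eno1, enolase 1 (chr4:150236721-150248879, plus), stood at 165, 161.5 and 119 CPM in GC B-like and 87.7, 110 and 102 CPM in follicular B-like cells, without overlap, although neighbours in the full order all overlapped. Pkm, the pyruvate kinase gene (chr9:59656368-59679375, plus), which makes pyruvate and a further ATP, was highest in replicating cells at 341 ± 86.9 CPM, then GC B-like at 257 ± 61.1 and activated B-like cells at 220.3 (187 to 278), each overlapping with the next. Follicular B-like cells stood at 116 ± 14.2 CPM. The count table does not separate the splice forms of Pkm.

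Per cell, without scaling by total UMIs, the 10 enzymes together gave 38.0, 35.1 and 26.1 UMIs in a GC B-like cell and 3.97, 4.56 and 4.11 in a follicular B-like cell of the LDHA-sufficient mice. GC B-like cells held more UMIs in total (median 9905 against 3165). Gpi1 and Aldoa, level as CPM, were therefore also more abundant per cell (2.27 against 0.500 UMIs of Gpi1 in mouse 1). Barcodes with hashtags of more than 1 mouse, removed here, had a median of 6943 UMIs. The rate of such barcodes implies about 167 undetected pairs from 1 mouse among the 1856 barcodes with a single hashtag, before the other filters on cells, and their part in these levels was not tested.

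Ldha, the enzyme after pyruvate and the gene targeted in these mice, shared its 3 highest states with Tpi1, Pgam1 and Pkm. In LDHA-sufficient mice it stood at 403 ± 100 CPM in replicating, 368 ± 25.3 in activated and 296 ± 86.1 in GC B-like cells, which overlapped, and at 157 ± 25.8 or less in the remaining states. Activated B-like cells were at 2.97 times the follicular level for Ldha, against 2.10 times for Pgam1, 1.87 times for Pkm and between 0.66 times (Gpi1) and 1.59 times (Tpi1) for the 7 others besides Hk2, which gave 2.63 times on 4 UMIs. The genes whose pattern over 28 mouse-by-state sums (at least 20 cells each) was most like the mean of the 10 enzymes were Hspd1, Ran, Eif4b, Cbx5, Cdk4, Prdx1, AI506816, Impdh2, Nucks1 and Tuba1b, with Pearson r from 0.84 down to 0.77 among 3085 genes, while Ldha had r = 0.53. For single enzymes the most alike genes were Anp32b for Gapdh (0.87), Hnrnpd for Pkm (0.83), Rbm3 for Pgam1 (0.77), Pdap1 for Pgk1 (0.75), Sap18 for Tpi1 (0.73), Ndufs6 for Aldoa (0.70), Pold4 for Eno1 (0.67), Tnpo3 for Hk2 (0.66), Parg for Pfkl (0.64) and Lgmn for Gpi1 (0.58). The sums share mice, a lane and depth, and the values are descriptions. Both genotypes are among the sums, and Ldha was lower in LDHA-deficient mice, so genotype and state cannot be told apart in its r. With the limit of 20 cells, GC B-like sums came only from LDHA-sufficient mice 1 and 2. Activated B-like sums came only from LDHA-deficient mice 1 and 2, and replicating cells gave none.

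The comparison of genotypes asked whether the loss of LDHA came with a change in the transcripts upstream of lactate. Over all B cells, none of the 10 enzymes passed the test, the quasi-likelihood test of edgeR with Benjamini-Hochberg adjusted p under 0.05, which called 1.1% of 9181 genes. Ldha did pass (212 ± 40.1 CPM in LDHA-sufficient against 57.2 ± 11.4 in LDHA-deficient mice, SD, n = 3 each, here scaled by TMM). From here on, CPM of genes in the tests of genotype and of heavy chains are scaled by TMM unless stated otherwise. They therefore differ from the levels by state given above. The 10 had a median log2 fold change of -0.16, LDHA-deficient over LDHA-sufficient, against 0.02 over all genes. In 3 of the 10 the mice of the genotypes did not overlap, against 19.6% of all genes, and 4 of 10 had an unadjusted p under 0.05, against 16.8%.

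The 4 were Tpi1, Gapdh, Pgam1 and Pkm. Gapdh stood at 811, 917 and 575 CPM in the LDHA-sufficient mice and at 568, 559 and 523 in the LDHA-deficient mice, with mouse 3 of the first group just above the second group (log2 -0.48, SE 0.15, edgeR adjusted p = 0.132). Tpi1 stood at 89.4, 102 and 66.6 CPM against 64.0, 42.6 and 66.0 (log2 -0.61, SE 0.19, edgeR adjusted p = 0.141). Pgam1 stood at 117, 115 and 83.5 CPM against 74.9, 79.1 and 75.5 (log2 -0.47, SE 0.14, edgeR adjusted p = 0.120). Pkm stood at 202, 217 and 150.1 CPM against 157, 145.5 and 139, which overlap (log2 -0.37, SE 0.13, edgeR adjusted p = 0.177).

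In each of these the LDHA-sufficient mouse nearest to the LDHA-deficient mice was mouse 3. That mouse had both 11 GC B-like cells and red cell markers at 3110 CPM. The part of either in its values cannot be told apart here and was not tested. Without that mouse, 5 of the 10 enzymes passed: Tpi1 (log2 -0.76), Gapdh (-0.66), Pgk1 (-0.45), Pgam1 (-0.60) and Pkm (-0.52), among 1359 of 9579 genes called (14.2%). With no filter on low counts 3 passed, Tpi1, Gapdh and Pgam1, among 632 of 16641 genes (3.8%). The other enzymes were nearly level over all B cells. Gpi1 gave 150.4, 152 and 146 CPM against 144, 153 and 154 (log2 0.00, 95% interval -0.22 to 0.23), Aldoa -0.03 (-0.25 to 0.20), Eno1 -0.06 (-0.33 to 0.21) and Pfkl -0.03 (-0.47 to 0.41). Hk2 gave 19, 15 and 12 UMIs against 10, 25 and 18 (8.45, 6.89 and 8.78 against 7.81, 15.2 and 15.6 CPM), with log2 0.70 and an interval of -0.01 to 1.40.

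**Figure D2:**
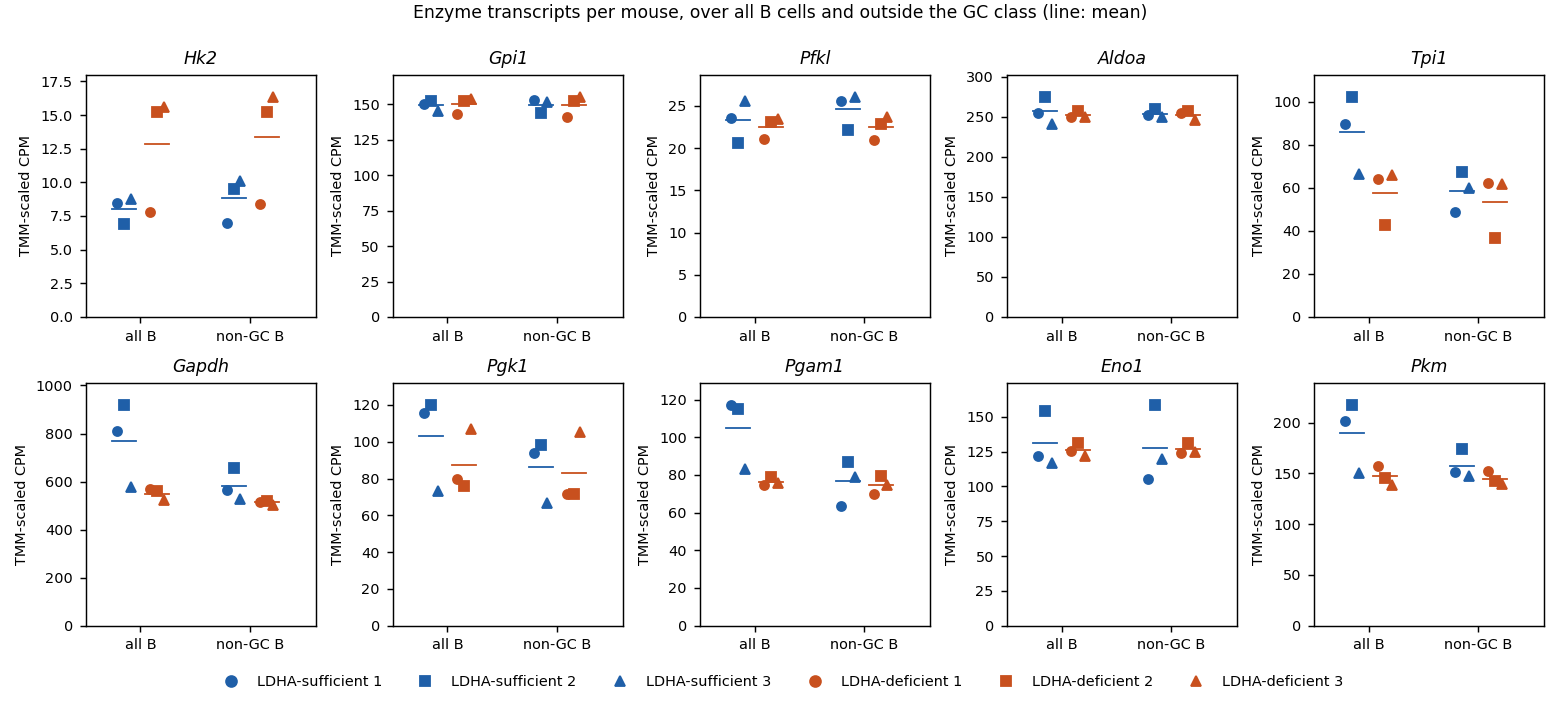
TMM-scaled CPM of each enzyme (y axis from 0) over all B cells and over B cells outside the GC and plasma cell classes (x axis). Points are mice, with a symbol for each, and lines are means. Gapdh, Tpi1, Pgam1 and Pkm are highest in LDHA-sufficient mice 1 and 2 over all B cells, and the means lie closer together once the GC class is left out.

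GC B-like cells held a large part of these transcripts in the mice that had many such cells. They held 54.1% of all Gapdh UMIs in LDHA-sufficient mouse 1 (95% Wilson interval 51.9 to 56.4), 58.0% in mouse 2 (55.8 to 60.2) and 18.3% in mouse 3 (15.8 to 21.2), and 14.6%, 10.8% and 7.30% in LDHA-deficient mice 1 to 3. Their share of the UMIs of all genes was 34.2%, 38.9% and 9.35% for LDHA-sufficient mice 1 to 3 and 5.52%, 4.16% and 4.51% for LDHA-deficient mice 1 to 3. For Gpi1 the shares were 37.6%, 43.7% and 9.05% in the LDHA-sufficient mice, near those of all genes. These intervals cover counting error only. The part of these shares in the genotype differences over all B cells was not tested.

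With GC and plasma cell-like cells left out, none of the 10 enzymes passed (the test called 0.08% of 8752 genes, Ldha among them), 1 had an unadjusted p under 0.05 (5.92% of all genes) and their median log2 fold change was -0.05, against 0.00 over all genes. Gapdh stood at 563, 658 and 528 CPM in LDHA-sufficient mice 1 to 3 and 516, 520 and 504 in LDHA-deficient mice 1 to 3, without overlap, as for 11.1% of all genes. Its log2 fold change was -0.18 (95% interval -0.35 to -0.02, edgeR adjusted p = 0.805). Tpi1 stood at 48.9, 67.3 and 59.8 against 62.1, 36.8 and 61.9 CPM, and the values overlap (log2 -0.16, interval -0.53 to 0.21). Pgam1 gave -0.03 (-0.31 to 0.25), Pkm -0.12 (-0.33 to 0.09) and Pgk1 -0.08 (-0.41 to 0.26). Aldoa gave -0.005 (-0.19 to 0.18), Gpi1 0.00 (-0.21 to 0.21) and Eno1 -0.01 (-0.26 to 0.23). The intervals of Pfkl (-0.13, -0.59 to 0.34) and Hk2 (0.60, -0.10 to 1.30) were the widest of the 10. The log2 fold change of Ldha in the same cells was -1.74 (interval -2.02 to -1.46). No enzyme passed when replicating cells or any 1 mouse were left out as well, and without replicating cells the log2 fold change of Gapdh was -0.09.

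**Figure D3:**
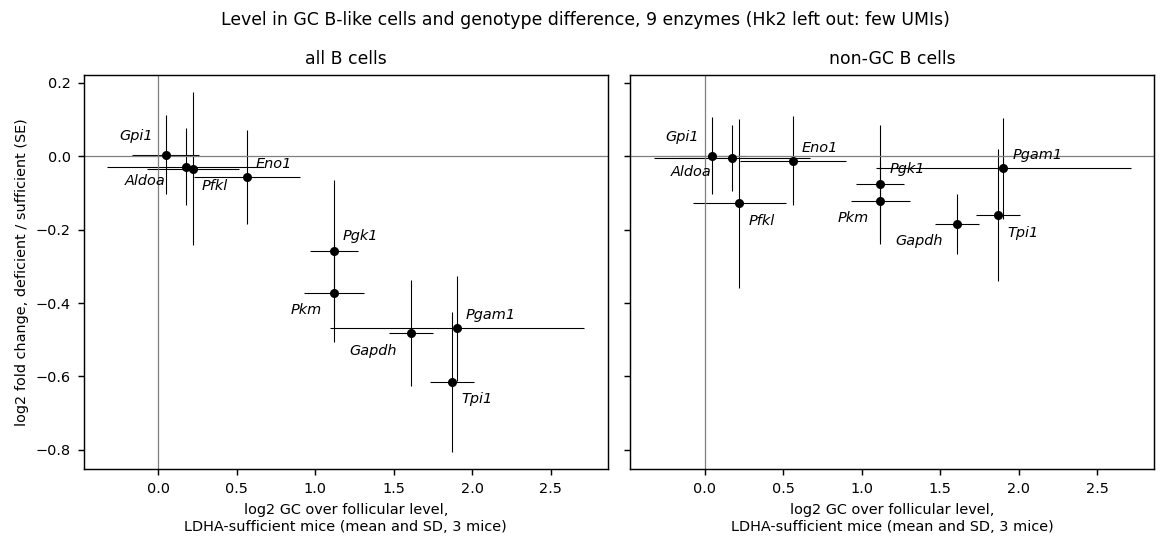
For 9 enzymes, the log2 ratio of GC B-like to follicular B-like level in LDHA-sufficient mice (x axis, mean and SD over 3 mice) against the log2 fold change between genotypes (y axis, with its SE), over all B cells (left) and non-GC B cells (right). The 5 enzymes with ratios above 1 have genotype values from -0.26 to -0.61 over all B cells and from -0.03 to -0.18 over non-GC B cells. Both axes use the same LDHA-sufficient mice, so the left panel is a description.

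Within single states no enzyme passed either. In follicular B-like cells, where the test called 0.123% of 5711 genes, the 8 enzymes past the count filter had log2 fold changes between -0.18 and 0.19 with a median of 0.00, and in none did the genotypes separate (9.35% of all genes). None had an unadjusted p under 0.05, against 4.41% of all genes. Gapdh stood at 412, 480.3 and 429 TMM-scaled CPM in LDHA-sufficient and 434.5, 454 and 422 in LDHA-deficient mice there (log2 -0.01, 95% interval -0.24 to 0.23). Gpi1 stood at 153, 170.3 and 168.5 against 126, 164 and 134, which overlap (log2 -0.18, interval -0.50 to 0.15). Ldha passed in the same cells (log2 -1.20).

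In marginal zone B-like cells the test called 0.218% of 3205 genes and none of 8 enzymes, whose median log2 fold change was -0.26, against -0.00 over all genes. Gapdh stood at 625, 950.1 and 634 TMM-scaled CPM against 579, 636 and 510.0, which overlap (log2 -0.35, edgeR adjusted p = 0.591). It was the only enzyme with an unadjusted p under 0.05 (8.02% of all genes). In activated B-like cells, with 15 to 19 cells in each LDHA-sufficient and 18 to 32 in each LDHA-deficient mouse, the test called 0.126% of 1589 genes and none of the 6 enzymes past the filter, and none had an unadjusted p under 0.05 (2.77% of all genes). Pkm stood at 253, 262 and 374 TMM-scaled CPM against 180, 222 and 186 there, without overlap, as for 7.93% of all genes. Its log2 fold change was -0.57 (interval -1.20 to 0.06, edgeR adjusted p = 0.997). Gpi1 stood at 182, 131 and 102 against 180, 168 and 253 TMM-scaled CPM (log2 0.47, interval -0.30 to 1.24). Set against follicular cells in one model with the mouse as a block, the genotype differences of Pkm and Gpi1 differed by -0.69 (interval -1.45 to 0.07) and 0.68 (-0.16 to 1.51), and none of 8 enzymes passed (0.0766% of 5224 genes) or had an unadjusted p under 0.05 (4.06%).

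In GC B-like cells the comparison rested on 5 cells in each of 2 LDHA-deficient mice, against 56, 68 and 11 cells. Gapdh stood at 1838 and 1779 TMM-scaled CPM (106 and 99 UMIs), against 1490, 1624 and 1287 in the LDHA-sufficient mice, without overlap, as for 33.4% of all genes (log2 0.29, interval -0.10 to 0.68, edgeR adjusted p = 0.585). The test called 0.0% of 2709 genes, 11.4% had an unadjusted p under 0.05, and DESeq2 called 3 genes, none of them an enzyme. The other 7 enzymes past the filter lay between -0.46 (Pgam1) and 0.32 (Gpi1). Ldha missed the threshold here too (log2 -1.44, edgeR adjusted p = 0.228), although its genotypes did not overlap (436, 349 and 250.3 against 86.7 and 180 CPM). Unscaled by TMM, the 10 enzymes together stood at 2719 and 2579 CPM in the LDHA-deficient and 2805, 2856 and 2142 CPM in the LDHA-sufficient GC B-like cells. The genotype difference in GC B-like cells set against that in non-GC B cells passed for none of the 10 enzymes (0.631% of 9357 genes), and none had an unadjusted p under 0.05 (8.37%), with 0.35 for Gapdh (interval -0.10 to 0.80).

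**Figure D4:**
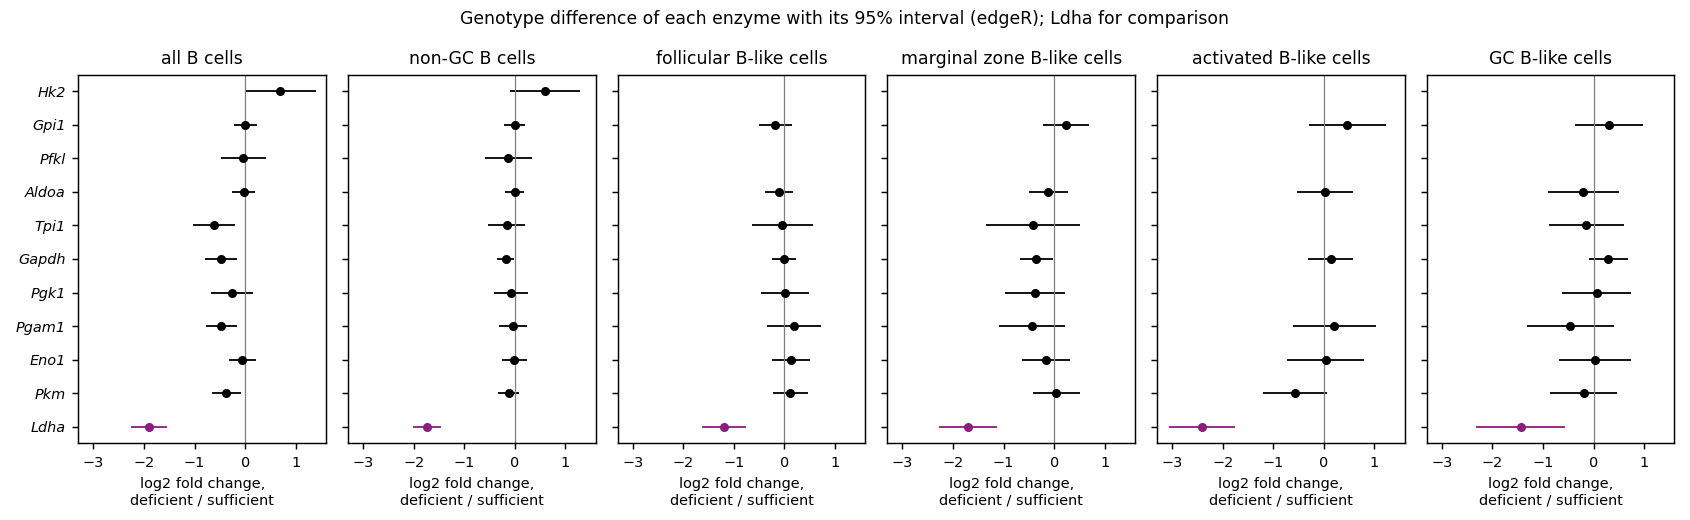
Log2 fold change of each enzyme, LDHA-deficient over LDHA-sufficient (x axis), with its 95% interval from edgeR, in 6 sets of cells, with Ldha in purple. A missing point is a gene below the count filter. The widest interval of an enzyme is that of Tpi1 in marginal zone B-like cells (-1.36 to 0.51), and Ldha lies at -1.20 or lower in each of the 6 sets.

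The heavy chain library gives a reading of cell history that the enzymes' transcripts did not define. GC B cells mutate their immunoglobulin V genes, so cells whose heavy chain V part had under 0.98 identity to the germline gene were set against the rest within the 3 LDHA-sufficient mice, which had 9, 16 and 5 mutated cells and 176, 173 and 172 germline cells. The LDHA-deficient mice had 1, 1 and 2 mutated cells and did not enter. Over both genotypes, 21 of 86 GC B-like cells with a usable chain were mutated and 5 of 389 follicular B-like cells. Plasma cell-like cells stayed in this comparison, and 3 of 17 with a usable chain were mutated. Of 1091 cells with 1 heavy chain, 66 whose clone was also seen in another mouse were left out. None of the 8 enzymes past the filter passed the test, which called 1.39% of 6608 genes. Their median log2 difference, mutated over germline, was 0.39, against -0.03 over all genes. Unadjusted p was under 0.05 for 2 of 8, against 11.5% of all genes, and 6 of 8 were higher in mutated cells in every mouse, against 34.3% of all genes with the same direction in every mouse.

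Gapdh stood at 886, 951 and 557 TMM-scaled CPM in germline and 1407, 1643 and 1067 in mutated cells of the same mice. It was higher in 3 of 3 (log2 0.79, SE 0.25, edgeR adjusted p = 0.156). With identity under 0.99 as the limit it passed (log2 0.75), the only enzyme to do so, among 635 of 7027 genes called (9.04%). Pgam1 stood at 129.5, 122 and 78.5 against 213, 208 and 116 CPM, also higher in 3 of 3 (log2 0.71, SE 0.29, edgeR adjusted p = 0.309). Tpi1 gave 0.53, Pkm 0.48, Aldoa 0.29 and Eno1 0.14, each higher in mutated cells of all 3 mice, with intervals that include 0. The mutated cells of mouse 3 gave only 4 UMIs of Tpi1, 8 of Pkm, 14 of Aldoa, 7 of Eno1 and 5 of Pgam1. Gpi1 (0.14) and Pgk1 (0.01) were higher in 2 of 3 mice. Ldha was higher in mutated cells of mouse 2 only. It stood at 276, 267 and 177 CPM in germline and 195, 399 and 162 in mutated cells (log2 0.03, interval -0.60 to 0.65). The interval of Ldha includes the estimates of Tpi1, Pkm, Aldoa and Eno1, and a difference from the enzymes was not tested.

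**Figure D5:**
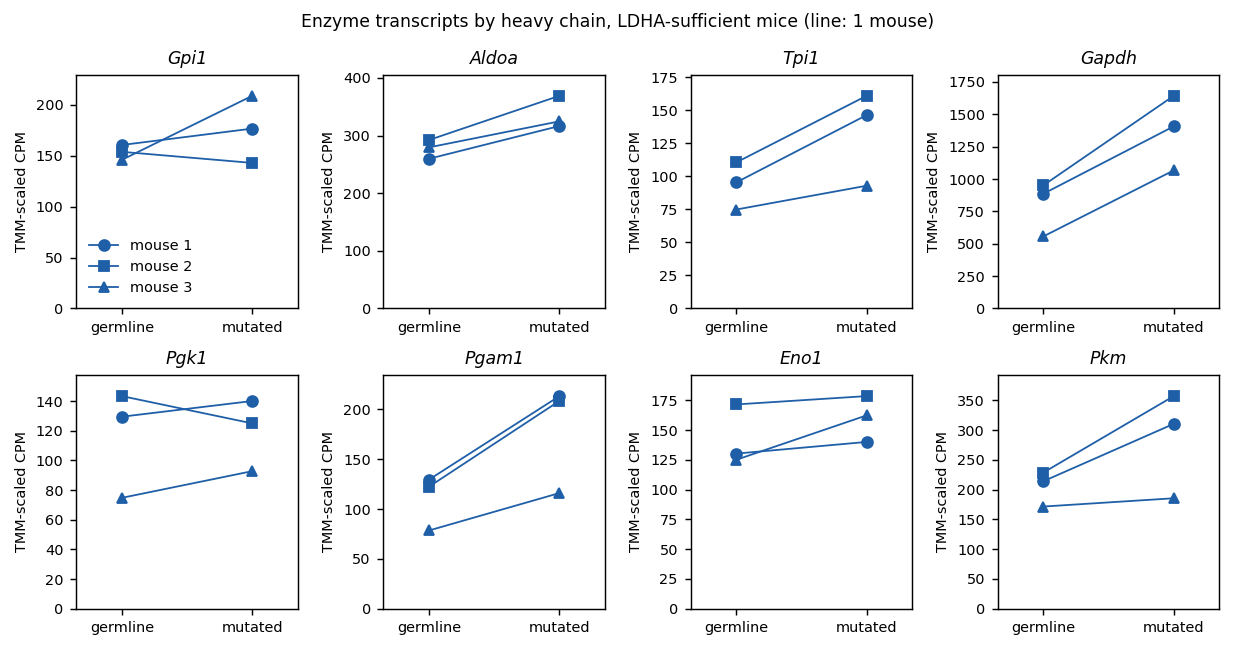
TMM-scaled CPM (y axis from 0) of 8 enzymes in cells with germline and mutated heavy chains (x axis), with 1 line and symbol for each LDHA-sufficient mouse. All 3 lines rise for Gapdh, Pgam1, Tpi1, Pkm, Aldoa and Eno1, while those of Gpi1 and Pgk1 cross.

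The genes around the pathway were read from lists of isozymes, regulators, the pentose phosphate branch that leaves glycolysis after its first step, and glucose uptake and lactate handling. Over all B cells 2 of 13 isozymes, 7 of 11 regulators, 7 of 7 pentose phosphate genes and 5 of 6 uptake and lactate genes passed the count filter, and none passed the test of genotype in any set of cells. The pentose phosphate genes had a median log2 fold change of -0.20 over all B cells and -0.19 outside the GC class. Tkt, transketolase, gave -0.40 over all B cells (edgeR adjusted p = 0.129). Of the other hexokinase and phosphofructokinase genes, Hk1 gave 265 and Pfkp 535 UMIs, more than the 99 of Hk2 and the 225 of Pfkl, a comparison that is not scaled by gene length.

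Between states, 3 of the 7 pentose phosphate genes stood above follicular level in GC B-like cells of all 3 LDHA-sufficient mice, a share near the 41.9% of genes given above. They were Pgd at 2.97-fold and G6pdx at 1.44-fold, which make NADPH, and Tkt at 2.00-fold. The 41.9% covers genes with at least 50 CPM, and G6pdx, with 188 UMIs over all cells kept, lay below that limit. Rpia (2.00-fold), Taldo1 (1.42-fold) and Pgls (1.16-fold) were above in 2 of 3 mice, and Rpe (0.85-fold) in 0 of 3. Pfkp, the platelet-type phosphofructokinase, stood 2.53-fold above (log2 1.34 ± 0.95, SD, n = 3) and also in 3 of 3 mice, where Pfkl was near level. Hk1 stood at 0.60-fold (log2 -0.73 ± 1.04) and was above in 1 of 3 mice. The glucose transporter Slc2a3 was below follicular level in all 3 mice (log2 -1.92 ± 0.28, SD, n = 3), on 10 UMIs in GC B-like and 33 in follicular B-like cells. So was the transporter Slc2a1 (log2 -2.55 ± 2.02, SD, n = 3), on 18 and 36 UMIs. Mpc2, a subunit of the mitochondrial pyruvate carrier, was above in 3 of 3 (log2 0.69 ± 0.29), and its partner Mpc1 in 1 of 3 (-0.35 ± 0.33). These levels are descriptions, as for the 10 enzymes.

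Markers of other cells were summed for each mouse. Over all B cells all 7 myeloid markers were detected, with sums of 195 to 207 CPM in LDHA-sufficient and 206 to 215 in LDHA-deficient mice, and the 6 T and NK cell markers summed to 6.05 to 18.8 and 3.52 to 24.5 CPM. In GC B-like cells the T and NK cell markers summed to 1.32 to 7.47 CPM in LDHA-sufficient and 0 to 166 CPM in LDHA-deficient mice, where Il7r was the only one of the 6 above 0. The 5 red cell markers summed to 24.2 to 3110 and 33.4 to 157 CPM, and the 6 plasma cell markers, which plasma cell-like cells carry, to 1389 to 2986 and 303 to 724 CPM. Their part in the enzymes' levels was not tested. Gapdh and Eno1 have near-identical copies elsewhere in the genome (Eno1b gave 117 UMIs), so their counts are uncertain to that extent.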

How the data were processed

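Transcript UMI counts per gene and barcode were deposited by the authors, made with Cell Ranger (6.0.2 per the file headers, 6.0.0 per the submitters' processing notes) on mm10. Hashtag UMI counts and, for each heavy chain, the V identity as a fraction were also deposited by the authors; the sources used here do not say how those were made. The hashtag and heavy chain libraries carry another cell type label (HSPCs) than the transcript library. The members and lists were chosen with earlier results of these data known.

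Hashtags were called with HTODemux (Seurat 5.3.0): of 2831 barcodes, 65.6% carried 1 hashtag, 29.0% several and 5.48% none. Cells with at least 500 genes, at least 1000 UMIs and under 10% mitochondrial UMIs were kept. Barcodes with more myeloid and plasmacytoid than B-lineage marker UMIs were left out, a step chosen after seeing the data. Clusters (scanpy 1.11.5, Leiden resolution 0.8, 30 components, 20 neighbours) were named where at least 3 markers stood at least 1.5-fold above the other cells in at least 10% of cells; 1 cluster was split into GC B-like and replicating cells after seeing the data. UMIs were summed per mouse and class (at least 20 cells, GC B-like 5) and fitted over all genes with edgeR 4.0.16 (TMM, filterByExpr, robust quasi-likelihood, Benjamini-Hochberg adjusted p under 0.05), with DESeq2 1.42.0 as an alternative. The activated class was to have 20 cells per mouse too, but 10 was used, since no LDHA-sufficient mouse reached 20; levels by state also use classes with at least 5 cells. The mice are 3 separate hashtags per genotype, and all shared 1 lane. Gene positions are from GENCODE vM21 on GRCm38. All 10 enzymes are described in every comparison, with Ldha; of each other list, genes were named among the 4 with the most UMIs, and the whole pentose phosphate list after its values were seen. The fit was also run on simulated counts, with no outcome given here. Alternatives are other size factors, no count filter, antibody segments left out of totals, other hashtag, mitochondrial and cluster settings, other V identity and each mouse left out.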

Additional observations from a re-analysis of the deposited data

How the results depend on the processing

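No paired analysis was possible because the hashtag numbers name single mice and pair none across genotypes; the mouse was a block only where 1 mouse gave both sets of cells. Over all B cells the number of enzymes passing the test ran from 0 to 5 when 1 mouse was left out, with 5 only without LDHA-sufficient mouse 3, and was 3 with no filter on low counts (632 of 16641 genes, against 101 of 9181). For mutated against germline chains it was 1, Gapdh, at V identity under 0.99 (635 of 7027 genes, against 92 of 6608), and 0 without any 1 mouse. In the other 7 comparisons it was 0 under every alternative run. The median log2 ratio of GC B-like over follicular B-like level was 2.69 as UMIs per cell, which keeps the larger RNA content of GC B-like cells, against 0.84 as CPM, and 0.73 to 0.88 without 1 mouse. Of 438 values of single enzymes under an alternative, 9 gained a call and 11 moved. No call could be lost or reversed, since no enzyme passed the test under the settings used above. Among uncalled values near 0, the sign differed in 12 of 120 over all B cells and 20 of 150 over non-GC B cells. For heavy chains it differed in 6 of 88. Heavy chain classes among non-GC B cells only could not be compared, since no mouse had 5 mutated cells there, and the LDHA-sufficient mice were the only ones in that comparison already. With 12 GC B-like cells in LDHA-deficient mice, depth limits the GC comparison to large differences.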
